A study of Mus musculus with 8 samples.

Results

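The IL-7 receptor and common gamma chain family is described here by 9 receptor chain genes: Il7r, Il2rg, Il2ra, Il2rb, Il4ra, Il9r, Il15ra, Il21r and Crlf2. They were chosen by name as members of this receptor family, with earlier results of these data known. Each was read from the row of its symbol with the largest mean count. They are 9 of the 22878 gene symbols measured, and all 9 passed the filter on low counts that left 13619 genes for testing. The cells were lymphoid progenitors sorted out of C57BL/6 mouse bone marrow, with no genetic change or treatment in any group. Total ChILP, the common helper-like innate lymphoid progenitors, were lineage-negative cells bearing CD127, integrin α4β7 and Kit and lacking Flt3 and ST2. PD-1+ cells, the progenitors of innate lymphoid cells (ILC) other than lymphoid tissue inducer (LTi) cells, came from the same gate with PD-1 and without CCR6. CCR6+ cells, the LTi progenitors, came from that gate with CCR6 and without PD-1. CLP, the common lymphoid progenitors, were lineage-negative, bore CD127, Kit, Sca-1 and Flt3, and lacked integrin α4β7. Each group had 2 RNA-seq libraries. The study compared ChILP with CLP to follow the early step of the lineage, and PD-1+ with CCR6+ cells to separate its branches. PD-1+ and CCR6+ cells were also compared with CLP here, so 3 comparisons share the same CLP libraries. CD127 is the protein of Il7r, and every gate required it, so Il7r had to be present in all groups. Whether a group's libraries came from separate mice, or how many mice were pooled, is not in the labels. The p-values therefore cover only the spread between libraries, which may be technical.

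Receptors of this family are built from a few shared parts. Il2rg encodes the common gamma chain, which joins the IL-7 receptor chain Il7r, the IL-4 receptor chain Il4ra, the IL-9 receptor chain Il9r and the IL-21 receptor chain Il21r, and, with the beta chain Il2rb, forms the signalling receptor for IL-2 and IL-15. Il2ra and Il15ra are the private high-affinity chains for those last cytokines. Il7r also pairs with Crlf2, without the common gamma chain, to bind thymic stromal lymphopoietin (TSLP). The common gamma chain carries the kinase JAK3, its partner chains carry JAK1, and the signal passes to STAT factors, STAT5 foremost for IL-7. In the marrow, IL-7 maintains lymphoid progenitors, and IL-15 with Il2rb supports NK cells and the innate lymphoid cells related to them.

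Between 7685188 and 13997897 reads per library fell on genes. ChILP and CLP were enriched by depleting lineage-positive cells, and PD-1+ and CCR6+ cells by magnetic capture through α4β7. The route of enrichment therefore differs in full between PD-1+ or CCR6+ cells and either CLP or ChILP. It cannot be told apart from cell type wherever those groups are set side by side. Neutrophil marker genes summed to between 16090 and 35260 RPKM (reads divided by transcript length and library total) in PD-1+ and CCR6+ libraries, against 1150 to 6706 RPKM in ChILP and CLP libraries. Erythroid marker genes summed to between 28270 and 40810 RPKM in the captured libraries, against 1473 to 6941 RPKM in the depleted ones. Most of that sum was Hba-a1 (21940 to 30610 RPKM in the captured libraries). Car1, of the same list, ran the other way, at 87.8 to 138 RPKM in captured and 422 to 591 RPKM in depleted libraries. Against CLP, 7 of the 8 genes had a positive fitted change in each captured population. Eosinophil marker genes summed higher in the depleted libraries, at 6576 to 15460 RPKM, against 926 to 2456 RPKM in the captured ones. Most of that sum was Prg2 (5418 to 12880 RPKM in the depleted libraries). Ccr3, of the same list, ran the other way, at 8.45 to 16.0 RPKM in captured and 0 to 4.07 RPKM in depleted libraries. Against CLP, 1 of the 8 eosinophil genes had a positive fitted change in each captured population. PD-1+ replicate 2 stood apart from its label: Pdcd1, the gene of PD-1, was at 36.3 RPKM there, against 180.6 RPKM in PD-1+ replicate 1, and Ccr6 was at 8.11 RPKM, against 0. Over all genes its counts were closest to those of CCR6+ replicate 2, with a chi-square per gene of 17.7, where pairs of libraries from the same group gave 38.9 to 76.5. For the chains, values against CLP are therefore also given without PD-1+ replicate 2. Other libraries showed some of the same traits. Ccr6 was at 23.6 RPKM in CCR6+ replicate 2, against 84.2 RPKM in CCR6+ replicate 1. By the same chi-square, ChILP replicate 1 was closer to CLP replicate 1 (40.3) than to ChILP replicate 2 (62.2).

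In the ChILP against CLP comparison none of the 9 chains passed an adjusted p of 0.05 (edgeR quasi-likelihood test, adjusted over all genes), where 0.022% of all genes passed. At an unadjusted p under 0.05 the count was 1 of 9, against 5.82% of all genes. Between PD-1+ and CCR6+ cells no chain passed, and no gene did (0%). The unadjusted count was 1 of 9, against 5.88% of all genes. By DESeq2, 1 chain passed in ChILP against CLP and 0 in PD-1+ against CCR6+ cells. On counts simulated with the spread fitted by edgeR, 28.9% to 33.7% of DESeq2 calls were wrong, against 4.76% to 8.92% of edgeR calls. There, only 100 genes were changed 8-fold and 100 were changed 64-fold. In ChILP against CLP, edgeR recovered 62% and 81% of them, and DESeq2 71% and 89%. The spread was edgeR's own and few genes were changed, so these shares cannot be carried over to the real comparisons. Against CLP, 2 of 9 chains rose in PD-1+ cells. Of all genes tested, 7.31% passed there, 4.47% being higher and 2.83% lower. Likewise 2 of 9 rose in CCR6+ cells, where 11.4% of all genes tested passed, 6.59% being higher and 4.79% lower. In both cases the chains were Il2rg and Il2rb. The unadjusted counts were 3 of 9 (24.2% of all genes) and 5 of 9 (27.5% of all genes). In a test for any difference among the 4 groups, Il2rb alone of the 9 passed, against 9.71% of all genes, with 5 of 9 at an unadjusted p under 0.05 (26.2% of all genes).

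**Figure D1:**
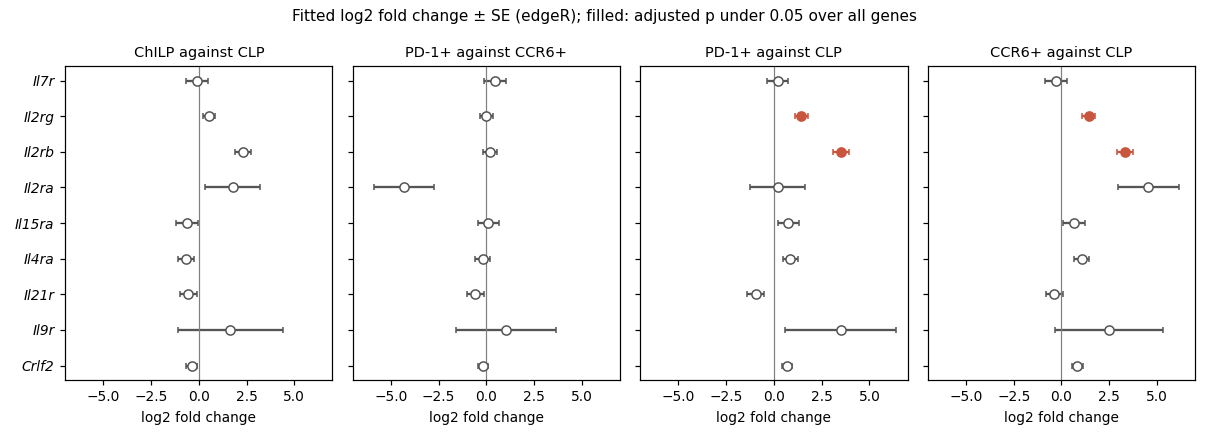
Fitted log2 fold changes of the 9 receptor chains in 4 comparisons, with horizontal bars for 1 standard error on either side; filled red points passed an adjusted p of 0.05 over all genes. Il2rg and Il2rb stand to the right of 0 and are filled in both comparisons with CLP on the right, while Il7r lies within 1 standard error of 0 in all 4 panels, and Il2ra and Il9r have the widest bars.

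Il2rg, the chain shared by most of these receptors, was the most abundant member in each of the 8 libraries. It had 86.1 and 119.8 RPKM in ChILP, 204 and 128.5 RPKM in PD-1+ cells, 170.3 and 146 RPKM in CCR6+ cells, and 48.2 and 102 RPKM in CLP. Both PD-1+ and both CCR6+ libraries lay above both CLP libraries, while ChILP and CLP overlapped. Il2rg rose in PD-1+ cells against CLP, with a log2 fold change of 1.43 ± 0.34 (SE, edgeR, adjusted p = 0.0469). It rose as much in CCR6+ cells against CLP, 1.43 ± 0.34 with an adjusted p of 0.0366. The difference between PD-1+ and CCR6+ cells was -0.00 ± 0.34, and that between ChILP and CLP was 0.53 ± 0.34 (adjusted p = 0.992). T, B, NK and myeloid cells express Il2rg too. B cell markers summed to between 241 and 345 RPKM in the PD-1+ and CCR6+ libraries, against 26.6 to 164 RPKM in the ChILP and CLP libraries. T cell markers summed to between 37.8 and 66.3 RPKM, against 6.00 to 8.77 RPKM. In the captured libraries Cd79a and Cd79b made the largest parts of the B cell sum. Against CLP, 6 of the 8 B cell genes had a positive fitted change in each captured population. Igll1 and Vpreb1 ran the other way, and neither passed. Their log2 fold changes were -1.92 and -0.94 in PD-1+ cells and -1.84 and -3.36 in CCR6+ cells. The part of T, B, NK and myeloid cells in the Il2rg values was not tested. The Il2rg calls lie close to the threshold. In PD-1+ cells against CLP the call was lost without CLP replicate 1 (log2 fold change 1.04, adjusted p = 0.150), CLP replicate 2 (1.97, 0.0817), PD-1+ replicate 1 (1.14, 0.127), PD-1+ replicate 2 (1.67, 0.0546), CCR6+ replicate 1 (1.43, 0.0636) or CCR6+ replicate 2 (1.43, 0.0640). In CCR6+ cells against CLP it was lost without CLP replicate 1 (1.04, 0.127), CLP replicate 2 (1.97, 0.0573), CCR6+ replicate 1 (adjusted p = 0.132) or CCR6+ replicate 2 (1.55, 0.0818). When replicate 2 of both captured populations was left out, a setting chosen after seeing the data, the value was 1.62 in PD-1+ cells (adjusted p = 0.0865) and 1.56 in CCR6+ cells (0.0718).

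**Figure D2:**
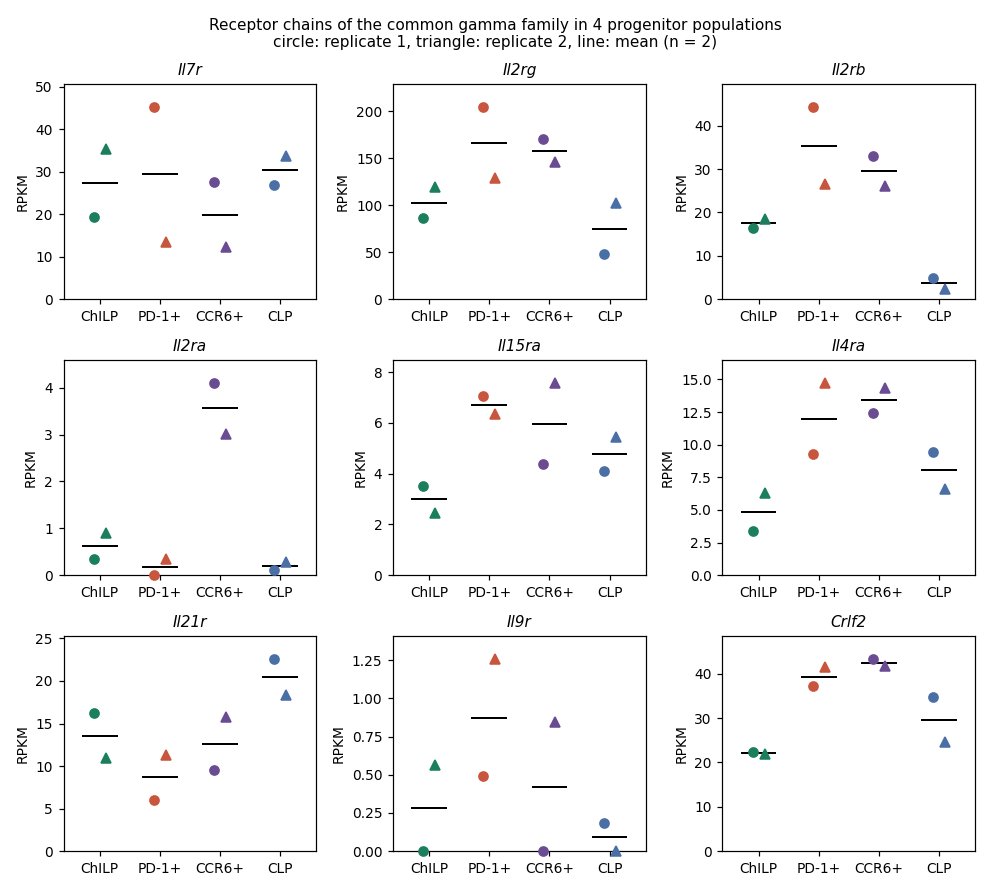
RPKM of the 9 receptor chains in each library, with circles for replicate 1, triangles for replicate 2 and a line at the mean of each pair (n = 2); each panel has its own linear axis from 0. Il2rb is low in CLP (4.82 and 2.43 RPKM) and higher in every other library, Il2ra is above 3 RPKM in CCR6+ cells alone, and the paired points of Il7r are far apart in PD-1+ cells (45.2 and 13.5 RPKM).

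Il7r, the receptor chain for IL-7 and the marker on which all the cells were sorted, had 19.2 and 35.4 RPKM in ChILP, 45.2 and 13.5 RPKM in PD-1+ cells, 27.5 and 12.2 RPKM in CCR6+ cells, and 26.9 and 33.7 RPKM in CLP. The order of the means was CLP, PD-1+, ChILP and CCR6+, and all 3 neighbouring pairs overlapped. The spread within a group was wide: the higher PD-1+ library had 3.34 times the level of the lower one, and the ratio was 2.26 in CCR6+ cells, 1.84 in ChILP and 1.25 in CLP. No comparison of Il7r passed. Its fitted change was, on the log2 scale, -0.09 ± 0.57 (SE) in ChILP, 0.20 ± 0.57 in PD-1+ cells and -0.27 ± 0.57 in CCR6+ cells, each against CLP. It was 0.47 ± 0.57 in PD-1+ against CCR6+ cells. The direction turned with a single library. Without PD-1+ replicate 1, PD-1+ cells were at -0.81 against CLP and -0.56 against CCR6+ cells, and without PD-1+ replicate 2 they were at 0.78 and 1.05. Kit, the growth factor receptor that was also part of every gate, had 29.2 and 8.21 RPKM in PD-1+ cells and 17.5 and 6.93 RPKM in CCR6+ cells. Both genes were thus lower in replicate 2 of each captured population. Of the genes of integrin α4β7, Itga4 was lower there too (19.4 and 11.3 RPKM in PD-1+ cells, 12.9 and 9.27 RPKM in CCR6+ cells). Itgb7 was higher in replicate 2 (187.5 and 199.7 RPKM, and 173.6 and 237.1 RPKM). Neutrophil markers were also higher in replicate 2, with sums of 16090 and 32680 RPKM in PD-1+ cells and 21840 and 35260 RPKM in CCR6+ cells. The part of neutrophil transcripts in the Il7r values was not tested. In bulk RNA, fewer cells of a type and less RNA per cell cannot be told apart.

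The promoters of Il7r and Il2rg are shown because these chains form the receptor on which the sort rests and did not follow each other over the libraries. Both are RefSeq sequences of build GRCm38.p6, from 250 bases before to 50 bases after the gene start, read in the direction of the gene. Capitals mark matches on either strand to TGTGGT, the core bound by RUNX factors, to GTAAACA, a forkhead core, or to TTCNNNGAA, the STAT core. Il7r lies on the minus strand at chr15:9529827-9530126 and Il2rg on the minus strand at chrX:101268206-101268505.
Il7r: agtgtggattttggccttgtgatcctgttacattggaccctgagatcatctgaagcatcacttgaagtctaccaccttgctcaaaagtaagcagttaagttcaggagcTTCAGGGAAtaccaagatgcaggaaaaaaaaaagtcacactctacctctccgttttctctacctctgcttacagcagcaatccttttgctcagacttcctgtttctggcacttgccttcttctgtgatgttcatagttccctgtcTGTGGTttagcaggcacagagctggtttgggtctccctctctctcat
Il2rg: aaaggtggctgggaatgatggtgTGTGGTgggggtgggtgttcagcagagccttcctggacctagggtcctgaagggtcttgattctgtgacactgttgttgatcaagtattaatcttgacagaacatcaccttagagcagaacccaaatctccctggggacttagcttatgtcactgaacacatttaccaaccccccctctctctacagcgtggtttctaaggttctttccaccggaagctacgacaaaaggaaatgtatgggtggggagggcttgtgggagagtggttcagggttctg
The Il7r window held 1 STAT core match, TTCAGGGAA, which 8.3% of 32851 promoters of this length also hold, and 1 RUNX core match near the start site. The Il2rg window held 1 RUNX core match. That core was found in 5 of the 8 members with a promoter entry (Il7r, Il2rg, Il21r, Il9r and Crlf2), against 16.8% of all promoters. A match is only a description of these letters.

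Crlf2, the TSLP receptor chain that pairs with Il7r, varied less within groups. It had 22.5 and 21.9 RPKM in ChILP, 37.1 and 41.5 RPKM in PD-1+ cells, 43.3 and 41.7 RPKM in CCR6+ cells, and 34.8 and 24.6 RPKM in CLP. In the order of means, CCR6+, PD-1+, CLP and ChILP, no neighbouring pair overlapped. PD-1+ and CCR6+ cells were parted only by 41.54 against 41.67 RPKM, with a log2 fold change of -0.17 ± 0.27 (SE, edgeR), so they were not clearly separated. None of the differences passed with adjustment over all genes. The log2 fold change against CLP was 0.84 ± 0.28 (SE) in CCR6+ cells (edgeR, adjusted p = 0.0909), 0.67 ± 0.27 in PD-1+ cells (0.183) and -0.38 ± 0.27 in ChILP (adjusted p = 1). Without PD-1+ replicate 2, PD-1+ cells were at 0.51 (adjusted p = 0.422). The test over 4 groups gave an adjusted p of 0.0639. Of the alternatives tried, only DESeq2 called the CCR6+ difference, with an adjusted p of 0.0298. The 2 annotated Crlf2 transcripts carried almost the same counts, so their use could not be separated.

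Il2rb, the beta chain of the IL-2 and IL-15 receptors, differed most clearly between the populations. It had 16.5 and 18.5 RPKM in ChILP, 44.3 and 26.6 RPKM in PD-1+ cells, 33.1 and 26.0 RPKM in CCR6+ cells, and 4.82 and 2.43 RPKM in CLP. All 6 libraries of the later progenitors lay above both CLP libraries, and ChILP lay below PD-1+ and CCR6+ cells. That last order also crosses the route of enrichment and cannot be told apart from it. The log2 fold change against CLP was 3.53 ± 0.42 (SE) in PD-1+ cells (edgeR, adjusted p = 0.0106) and 3.35 ± 0.41 in CCR6+ cells (adjusted p = 0.00686), and the test over 4 groups gave an adjusted p of 0.0120. PD-1+ and CCR6+ cells differed by 0.18 ± 0.37. In ChILP against CLP, the comparison within 1 route of enrichment, the log2 fold change was 2.31 ± 0.40 with an unadjusted p of 4.2e-04. Its adjusted p was 0.0990 and did not pass. It did pass by DESeq2 (1.35e-05), by limma on log2(RPKM + 1) (0.0452) and with no filter on low counts (0.0207). The share of wrong DESeq2 calls on simulated counts is given above, with its limits. Leaving out CLP replicate 2 ended the PD-1+ call (log2 fold change 3.06, adjusted p = 0.0612) and, in CCR6+ cells, gave 2.88 with an adjusted p of 0.0474. Without PD-1+ replicate 2, PD-1+ cells gave 3.80 (adjusted p = 0.0105). With replicate 2 of both captured populations left out, PD-1+ cells gave 3.76 (adjusted p = 0.0217) and CCR6+ cells 3.54 (0.0194).

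Il2rb is also expressed by NK cells and some T cells, and their markers moved with the captured libraries. The 8 NK cell marker genes summed to 13.4 and 12.8 RPKM in ChILP, 64.5 and 41.0 RPKM in PD-1+ cells, 47.8 and 35.1 RPKM in CCR6+ cells, and 12.9 and 8.12 RPKM in CLP. The 8 T cell marker genes summed to 8.77 and 7.48 RPKM in ChILP, 37.8 and 64.6 RPKM in PD-1+ cells, 66.3 and 61.7 RPKM in CCR6+ cells, and 6.81 and 6.00 RPKM in CLP. All 8 NK cell genes had reads in both PD-1+ libraries, both CCR6+ libraries and CLP replicate 1, and 6 had reads in CLP replicate 2. Klrk1 and Gzma rose against CLP in both captured populations, 2 of 8 beside 7.31% of all genes in PD-1+ cells and 11.4% in CCR6+ cells. In ChILP, 6 and 5 of the 8 genes had reads. None of the 8 passed in ChILP against CLP, where 3 were higher (Ncr1, Klrk1 and Gzma) and 1 lower (Prf1) at an unadjusted p under 0.05. Prf1 and Klra8 were at 0 in both ChILP libraries. Ncr1 had 4.42 and 5.67 RPKM in ChILP, against 0.319 and 2.06 RPKM in CLP. The part of NK and T cell transcripts in the Il2rb differences was not tested.

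**Figure D3:**
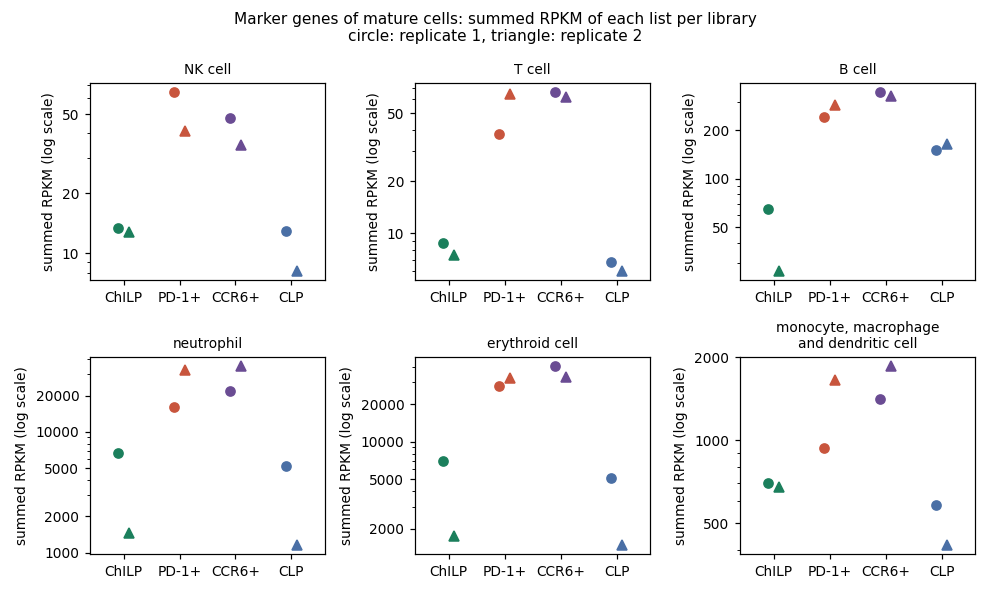
Summed RPKM of 6 lists of mature cell marker genes in each library, on log axes; circles are replicate 1 and triangles replicate 2. NK cell, T cell, neutrophil, erythroid and monocyte lists are higher in the PD-1+ and CCR6+ libraries than in any ChILP or CLP library, as is the B cell list, which is lowest in ChILP. The eosinophil list, not drawn, runs the other way.

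Il2ra, the high-affinity IL-2 receptor chain CD25, was low and mainly found in CCR6+ cells. It had 0.346 and 0.907 RPKM in ChILP, 0 and 0.347 RPKM in PD-1+ cells, 4.10 and 3.02 RPKM in CCR6+ cells, and 0.106 and 0.278 RPKM in CLP. The read counts behind these values were 28 and 62 in ChILP, 0 and 25 in PD-1+ cells, 194 and 195 in CCR6+ cells, and 5 and 18 in CLP. The PD-1+ library with no read allows up to 0.0466 RPKM (3 counts, counting error only). Both CCR6+ libraries were above all the others. By the edgeR fit the log2 fold change was -4.34 ± 1.57 (SE) in PD-1+ against CCR6+ cells (adjusted p = 0.810) and 4.55 ± 1.59 in CCR6+ cells against CLP (adjusted p = 0.108), so neither passed. The difference between CCR6+ cells and CLP passed by DESeq2 (adjusted p = 0.00583) and by limma on log2(RPKM + 1) (0.0104), and also without PD-1+ replicate 1 (4.56, 0.0158) or PD-1+ replicate 2 (4.54, 0.0185). The PD-1+ against CCR6+ difference passed under none of the alternatives tried, and its lowest adjusted p, 0.0848, came without PD-1+ replicate 2.

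Il15ra, which presents IL-15 and binds it with high affinity, had 3.51 and 2.46 RPKM in ChILP, 7.06 and 6.36 RPKM in PD-1+ cells, 4.38 and 7.57 RPKM in CCR6+ cells, and 4.12 and 5.46 RPKM in CLP. Both ChILP libraries were below the rest, and the other groups overlapped with their neighbours. On the other annotated Il15ra transcript this order was not kept. There, ChILP had 4.70 and 2.70 RPKM, CCR6+ cells 4.49 and 6.84 RPKM and CLP 3.19 and 4.92 RPKM, so ChILP overlapped both. No comparison passed: the log2 fold change against CLP was -0.62 ± 0.57 (SE) in ChILP, 0.76 ± 0.57 in PD-1+ cells and 0.66 ± 0.57 in CCR6+ cells. The PD-1+ value was 0.77 without PD-1+ replicate 2. Il15ra lies next to Il2ra on chromosome 2, with no protein-coding gene between them in the RefSeq annotation, yet the pair did not share a pattern: the correlation of their log2 CPM (TMM-scaled counts per library total) over the 8 libraries was -0.00.

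Il4ra, the chain that binds IL-4 and also forms the IL-13 receptor with Il13ra1, had 3.42 and 6.33 RPKM in ChILP, 9.29 and 14.7 RPKM in PD-1+ cells, 12.5 and 14.3 RPKM in CCR6+ cells, and 9.47 and 6.60 RPKM in CLP. In RPKM, which is not TMM-scaled, ChILP lay below every other group. Against CLP, the log2 fold change was 1.06 ± 0.40 (SE) in CCR6+ cells (edgeR, adjusted p = 0.135), 0.86 ± 0.40 in PD-1+ cells (0.242) and -0.68 ± 0.40 in ChILP (0.977). Without PD-1+ replicate 2 the PD-1+ value was 0.40 (adjusted p = 0.628). Il13ra1 had 1.16 and 0.949 RPKM in ChILP, 1.85 and 7.75 RPKM in PD-1+ cells, 3.86 and 10.2 RPKM in CCR6+ cells, and 0.761 and 0.0742 RPKM in CLP. Its difference from CLP did not pass in CCR6+ cells (4.39 ± 1.18, adjusted p = 0.0518) or in PD-1+ cells (3.82 ± 1.16, 0.0872). Il4ra, Crlf2 and Il13ra1 are also expressed by myeloid cells. The marker genes of monocytes, macrophages and dendritic cells summed to between 940 and 1859 RPKM in PD-1+ and CCR6+ libraries, against 416 to 697 RPKM in ChILP and CLP libraries. Their part in these values was not tested.

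Il21r, the IL-21 receptor chain, had its highest RPKM in CLP. It had 16.2 and 10.9 RPKM in ChILP, 5.96 and 11.4 RPKM in PD-1+ cells, 9.51 and 15.7 RPKM in CCR6+ cells, and 22.5 and 18.3 RPKM in CLP. In RPKM, which is not TMM-scaled, both CLP libraries lay above the other 6. The other 3 groups overlapped. Against CLP, the log2 fold change was -0.54 ± 0.43 (SE) in ChILP, -0.95 ± 0.43 in PD-1+ cells and -0.37 ± 0.43 in CCR6+ cells, and none passed (edgeR, lowest adjusted p = 0.228). In PD-1+ cells it was -1.58 without PD-1+ replicate 2 (adjusted p = 0.102) and -0.51 without PD-1+ replicate 1 (0.553). Il21r neighbours Il4ra on chromosome 7 with no protein-coding gene between them, and the correlation of their log2 CPM over the 8 libraries was -0.07. Their promoters are shown because the adjacent genes had different orders over the 4 groups. Both lie on the plus strand of GRCm38.p6, Il4ra at chr7:125552021-125552320 and Il21r at chr7:125603179-125603478, with capitals as above.
Il4ra: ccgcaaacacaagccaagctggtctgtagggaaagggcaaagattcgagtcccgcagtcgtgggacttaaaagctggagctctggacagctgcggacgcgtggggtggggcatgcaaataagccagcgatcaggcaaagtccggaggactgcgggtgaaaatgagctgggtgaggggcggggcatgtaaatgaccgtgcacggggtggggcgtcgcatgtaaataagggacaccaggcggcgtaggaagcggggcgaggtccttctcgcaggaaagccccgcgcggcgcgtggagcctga
Il21r: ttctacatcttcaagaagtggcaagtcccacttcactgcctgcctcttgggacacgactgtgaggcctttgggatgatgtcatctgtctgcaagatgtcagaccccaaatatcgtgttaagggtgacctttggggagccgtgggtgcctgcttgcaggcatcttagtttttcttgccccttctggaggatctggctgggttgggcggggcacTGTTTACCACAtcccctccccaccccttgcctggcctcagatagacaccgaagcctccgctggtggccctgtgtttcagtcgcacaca
The Il21r window held overlapping matches to the forkhead and RUNX cores, and 3.65% of all promoters hold the forkhead core. The Il4ra window held none of the 3 cores. It held 3 copies of GGAA or its complement, the ETS core found in 96% of promoters, where the Il21r window held 0. The GC share was 62.0% for Il4ra and 56.0% for Il21r.

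Il9r, the IL-9 receptor chain, was close to the detection limit. It had 0 and 0.567 RPKM in ChILP, 0.490 and 1.26 RPKM in PD-1+ cells, 0 and 0.845 RPKM in CCR6+ cells, and 0.182 and 0 RPKM in CLP, from between 0 and 63 reads a library. The libraries with no read allow up to 0.0532 RPKM in ChILP, 0.0909 RPKM in CCR6+ cells and 0.0664 RPKM in CLP (3 counts each). All groups overlapped their neighbours, and no difference was detectable at this depth (edgeR, lowest adjusted p over the 4 comparisons = 0.515). Without PD-1+ replicate 2, PD-1+ cells against CLP had an adjusted p of 0.702.

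Over the family, the RPKM of the 2 groups compared did not overlap for 6 of 9 chains in ChILP against CLP, 2 higher (17% of all genes) and 4 lower (18.6%). The higher ones were Il2rb and Il2ra, and the lower ones Il4ra, Il15ra, Il21r and Crlf2. Il15ra was among them only on the transcript used, as its other transcript overlapped. In PD-1+ against CCR6+ cells 0 were higher (19%) and 2 lower (14.2%), Il2ra and Crlf2. For Crlf2 the gap was only 41.54 against 41.67 RPKM. Against CLP, 5 were higher (18.6%) and 1 lower (38.7%) in PD-1+ cells, and 5 were higher (19.8%) and 1 lower (45.7%) in CCR6+ cells. Il21r was the lower chain in both. Il2rg, Il2rb and Crlf2 were higher in both, Il9r and Il15ra in PD-1+ cells only, and Il2ra and Il4ra in CCR6+ cells only. For Il9r the CLP libraries had 6 and 0 reads. All these overlaps are of RPKM without TMM scaling. The TMM factors were 0.857 to 0.992 in the captured libraries and 1.11 and 1.13 in the CLP libraries. Scaling can therefore change which groups overlap, for the chains and for the shares of all genes. The median log2 fold change of the 9 chains was -0.09 in ChILP, 0.76 in PD-1+ cells and 1.06 in CCR6+ cells against CLP, beside 0.05, -0.02 and -0.09 over all genes tested. It was -0.00 in PD-1+ against CCR6+ cells, beside 0.01 over all genes.

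Since RPKM is per length, the chains can be compared within a library. Il2rg made up between 51.3% and 57.8% of the summed RPKM of the 9 chains in 7 libraries and 31.9% in CLP replicate 1. Il7r made up 11.5% and 16.3% in ChILP, 12.8% and 5.54% in PD-1+ cells, 9.02% and 4.56% in CCR6+ cells, and 17.8% and 17.4% in CLP. Il2rb made up 9.82% and 8.54% in ChILP, 12.5% and 10.9% in PD-1+ cells, 10.9% and 9.74% in CCR6+ cells, and 3.19% and 1.26% in CLP. The share of Il2rb was thus lower in both CLP libraries than in the other 6, whereas that of Il7r overlapped between ChILP and PD-1+ cells and was highest in CLP.

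**Figure D4:**
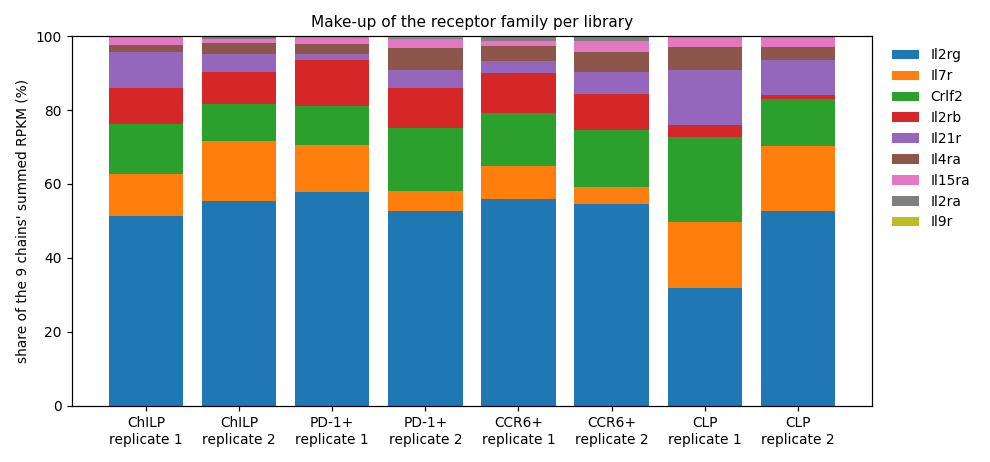
Share of each receptor chain in the summed RPKM of the 9 chains, in percent, with 1 stacked bar per library. Il2rg fills more than 50% of 7 bars and 31.9% of CLP replicate 1, and the red Il2rb segment is between 8.54% and 12.5% in the ChILP, PD-1+ and CCR6+ bars and at most 3.19% in CLP.

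The level of Il2rg over that of Il7r, the partners of the IL-7 receptor, was 4.47 and 3.38 in ChILP, 4.53 and 9.51 in PD-1+ cells, 6.20 and 12.0 in CCR6+ cells, and 1.79 and 3.03 in CLP. Every ratio of the later progenitors was above both CLP ratios. Il2rb over Il7r was 0.856 and 0.523 in ChILP, 0.980 and 1.97 in PD-1+ cells, 1.21 and 2.14 in CCR6+ cells, and 0.179 and 0.0723 in CLP, again without overlap with CLP. Il15ra over Il2rb ran the other way, with 0.213 and 0.133 in ChILP, 0.160 and 0.239 in PD-1+ cells, 0.132 and 0.291 in CCR6+ cells, and 0.856 and 2.25 in CLP. Crlf2 over Il7r, the partners of the TSLP receptor, was 1.17 and 0.619 in ChILP, 0.822 and 3.07 in PD-1+ cells, 1.57 and 3.43 in CCR6+ cells, and 1.29 and 0.730 in CLP. CCR6+ cells lay above ChILP and CLP in this ratio, and PD-1+ cells overlapped every group.

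Of the ligand genes, 4 of 8 had enough reads to be tested and none passed in any comparison. Il9 had no read in any library, and Il2, Il7, Il13 and Il21 stayed under 1 RPKM. Il15 had 5.59 and 5.05 RPKM in ChILP, 7.19 and 9.10 RPKM in PD-1+ cells, 1.88 and 8.05 RPKM in CCR6+ cells, and 3.16 and 7.91 RPKM in CLP.

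Of the 4 Janus kinase genes, none passed in ChILP against CLP, in PD-1+ against CCR6+ cells or in PD-1+ cells against CLP, and 2 passed in CCR6+ cells against CLP, in opposite directions, where 11.4% of all genes passed. Jak3, the kinase bound to the common gamma chain, had 21.2 and 19.9 RPKM in ChILP, 22.2 and 12.0 RPKM in PD-1+ cells, 8.01 and 10.2 RPKM in CCR6+ cells, and 26.1 and 23.2 RPKM in CLP. It fell in CCR6+ cells against CLP, with a log2 fold change of -1.11 ± 0.29 (SE, edgeR, adjusted p = 0.0471), where Il2rg rose. Leaving out any 1 of the 6 libraries of ChILP, CCR6+ cells and CLP ended that call, with adjusted p up to 0.202. Tyk2 rose in CCR6+ cells against CLP by 1.18 ± 0.26 (adjusted p = 0.0282), a call lost without CLP replicate 1, CLP replicate 2 or CCR6+ replicate 1 (adjusted p up to 0.143). Jak1, the kinase of the partner chains, had 45.7 and 42.1 RPKM in ChILP, 45.5 and 41.4 RPKM in PD-1+ cells, 35.8 and 41.2 RPKM in CCR6+ cells, and 34.5 and 32.9 RPKM in CLP, and its largest log2 fold change was 0.63 ± 0.17 in PD-1+ cells against CLP (adjusted p = 0.0646).

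Of the 6 STAT genes reported, none passed in ChILP against CLP or in PD-1+ against CCR6+ cells, 1 passed in PD-1+ cells against CLP and 2 in CCR6+ cells against CLP, all higher. Of all genes, 4.47% passed as higher in PD-1+ cells and 6.59% in CCR6+ cells. Stat3, which serves IL-21 among others, was the one in PD-1+ cells (1.10 ± 0.24 SE, edgeR, adjusted p = 0.0339). In CCR6+ cells, Stat3 was higher by 0.92 ± 0.24 (adjusted p = 0.0457) and Stat6, the factor downstream of Il4ra, by 1.25 ± 0.32 (0.0457). Each of these 3 calls was lost when any 1 of at least 4 libraries was left out, with adjusted p of up to 0.204. Those libraries were both of CLP and both of PD-1+ cells for Stat3 in PD-1+ cells, and both of ChILP, both of CCR6+ cells and both of CLP for Stat3 and Stat6 in CCR6+ cells. The STAT5 genes, the main IL-7 signal carriers, did not pass in any comparison. Stat5a had 19.9 and 23.8 RPKM in ChILP, 13.8 and 11.6 RPKM in PD-1+ cells, 10.2 and 8.68 RPKM in CCR6+ cells, and 18.3 and 24.1 RPKM in CLP. Its log2 fold change in CCR6+ cells against CLP was -0.83 ± 0.22 (adjusted p = 0.0512). Stat5b stayed between 11.6 and 19.1 RPKM in all 8 libraries.

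Of 7 negative regulators, 1 passed in CCR6+ cells against CLP, where 11.4% of all genes passed, and none in the other 3 comparisons. Ptpn6, the phosphatase SHP-1, rose in CCR6+ cells by 1.38 ± 0.28 (SE, edgeR, adjusted p = 0.0231), a call lost without either CLP or either CCR6+ library (adjusted p up to 0.142). It had 147 and 221 RPKM in PD-1+ cells and 228 and 258 RPKM in CCR6+ cells, so it was higher in replicate 2, like the neutrophil markers. The part of neutrophil and monocyte transcripts in the Ptpn6, Stat3 and Stat6 calls was not tested. Cish, a STAT5 target that inhibits the pathway, had 2.74 and 1.74 RPKM in ChILP, 11.5 and 6.55 RPKM in PD-1+ cells, 12.3 and 12.1 RPKM in CCR6+ cells, and 8.65 and 14.5 RPKM in CLP. Both ChILP libraries were below all others. Its log2 fold change in ChILP against CLP was -2.30 ± 0.44 (adjusted p = 0.133). In the test over 4 groups 3 of the 7 passed, where 9.71% of all genes did. They were Cish (adjusted p = 0.0316), Ptpn6 (0.0297) and Socs3 (0.0346). Socs1, the inhibitor of Janus kinases, had 67.6 and 96.6 RPKM in ChILP, 145 and 38.2 RPKM in PD-1+ cells, 26.2 and 23.5 RPKM in CCR6+ cells, and 15.6 and 33.0 RPKM in CLP. Its log2 fold change against CLP did not pass in ChILP (1.83 ± 0.56, adjusted p = 0.521) or PD-1+ cells (2.17 ± 0.57, 0.0589).

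Of 10 target and survival genes, none passed in ChILP against CLP or in PD-1+ against CCR6+ cells. Against CLP, 2 rose and 1 fell in PD-1+ cells, where 4.47% of all genes rose and 2.83% fell. In CCR6+ cells 3 rose and 2 fell, where 6.59% of all genes rose and 4.79% fell. Bcl2, the survival gene that IL-7 maintains in lymphocytes, had 27.7 and 46.2 RPKM in ChILP, 67.6 and 23.7 RPKM in PD-1+ cells, 13.5 and 8.27 RPKM in CCR6+ cells, and 9.74 and 9.74 RPKM in CLP. All ChILP and PD-1+ libraries were above all CCR6+ and CLP libraries. Bcl2 rose in PD-1+ cells against CLP by 2.47 ± 0.48 (SE, edgeR, adjusted p = 0.0265), a call lost without CLP replicate 1 or 2 (adjusted p up to 0.161). The difference did not pass in ChILP against CLP (1.98 ± 0.47, adjusted p = 0.288) or PD-1+ against CCR6+ cells (1.97 ± 0.47, 0.662). Bcl2l1, the gene of BCL-XL, rose in both captured populations against CLP, by 2.78 ± 0.48 in PD-1+ cells and 2.90 ± 0.48 in CCR6+ cells (adjusted p = 0.0189 and 0.0124). Both calls were lost without CLP replicate 2, at adjusted p of 0.122 and 0.0901. Erythroid cells also express Bcl2l1, and the part of the erythroid transcripts above was not tested. Myc, a growth gene, fell in both, by 1.95 on the log2 scale in PD-1+ cells (adjusted p = 0.00992) and by 2.41 in CCR6+ cells (adjusted p = 0.00471). The PD-1+ call was lost without CLP replicate 2 (0.0727) and the CCR6+ call was kept under every alternative tried. In CCR6+ cells Mcl1 and Pim1 rose by 1.28 and 1.67 and Ccnd2 fell by 1.37 on the log2 scale, and each of these calls was lost without CLP replicate 2 or either CCR6+ library. The Mcl1 call was also lost without ChILP replicate 1 and the Pim1 call without CLP replicate 1. The highest adjusted p was 0.182 for Mcl1, 0.137 for Pim1 and 0.152 for Ccnd2. The part of neutrophil and monocyte transcripts in the Mcl1 and Pim1 calls was not tested.

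**Figure D5:**
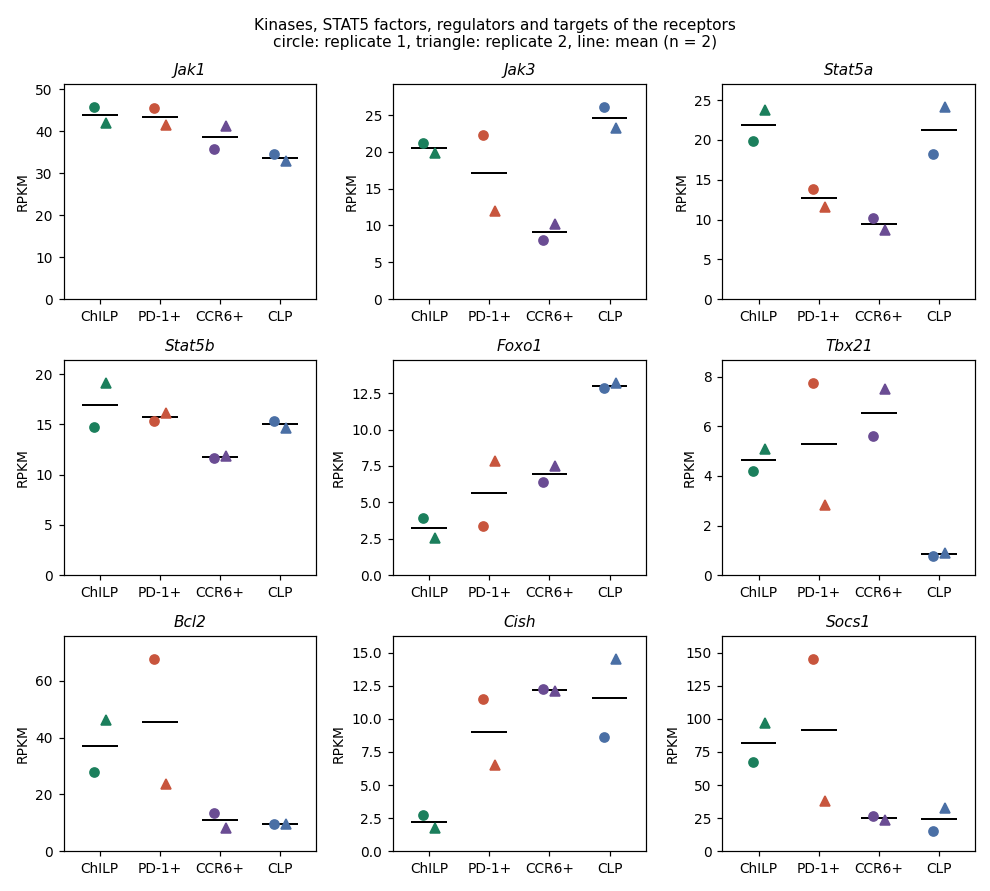
RPKM of 9 genes of the pathway in each library, with circles for replicate 1, triangles for replicate 2 and a line at the mean of each pair (n = 2). Jak3 and Stat5a are lowest in CCR6+ cells, Foxo1 is highest in CLP, Cish is lowest in ChILP, and Bcl2 and Socs1 are higher in ChILP and PD-1+ cells than in CCR6+ cells or CLP.

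Of 10 genes known to regulate the receptor chain genes, none passed in ChILP against CLP or in PD-1+ against CCR6+ cells, 2 rose in PD-1+ cells against CLP (7.31% of all genes passed), and 1 rose and 1 fell in CCR6+ cells against CLP (11.4% of all genes passed). Tbx21, the gene of T-bet, a factor that supports Il2rb expression in T and NK cells, had 4.18 and 5.10 RPKM in ChILP, 7.74 and 2.85 RPKM in PD-1+ cells, 5.61 and 7.50 RPKM in CCR6+ cells, and 0.769 and 0.910 RPKM in CLP. All libraries of the later progenitors were above both CLP libraries. T and NK cells express Tbx21, and the NK and T cell marker sums given above were higher in the same PD-1+ and CCR6+ libraries. Their part in the Tbx21 values was not tested. Tbx21 rose by 2.89 ± 0.58 (SE, edgeR, adjusted p = 0.0287) in PD-1+ cells and 3.29 ± 0.59 (0.0160) in CCR6+ cells, and the value in ChILP was 2.52 ± 0.57 (adjusted p = 0.256). The PD-1+ call was lost without either CLP library or PD-1+ replicate 1 (adjusted p up to 0.173), and the CCR6+ call without either CLP library or CCR6+ replicate 2 (up to 0.112). Eomes, the related factor, stayed under 3 RPKM in all libraries. Ets1 rose in PD-1+ cells by 1.78 ± 0.29 (adjusted p = 0.0162), a call lost without either CLP library (adjusted p up to 0.0817). Gfi1, a repressor of Il7r in T cells, fell in CCR6+ cells by 2.73 on the log2 scale (adjusted p = 0.0476), a call lost without CLP replicate 2, either ChILP or either CCR6+ library (adjusted p up to 0.372). Foxo1, which drives Il7r in lymphocytes, had 3.96 and 2.58 RPKM in ChILP, 3.38 and 7.85 RPKM in PD-1+ cells, 6.42 and 7.53 RPKM in CCR6+ cells, and 12.8 and 13.2 RPKM in CLP. Both CLP libraries were above all others, but no difference from CLP passed (lowest adjusted p = 0.246). Foxp1, which opposes Foxo1 at Il7r in T cells, had 8.40 and 11.3 RPKM in ChILP and 23.2 and 30.9 RPKM in CLP (-1.39 ± 0.22, adjusted p = 0.0883). In the test over 4 groups 3 of the 10 regulators passed, Foxp1 among them (adjusted p = 0.0314), where 9.71% of all genes did.

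The genes most like each member were named by Pearson's r of log2 CPM over the 8 libraries, among 6914 genes whose mean reached 10 RPKM in some group. The points share libraries and scaling, so r is a description. For Il2rb they were Batf3 (0.990), Pkp3 (0.988) and Ckb (0.982). Batf3, a factor of the AP-1 family, had 4.38 and 9.74 RPKM in ChILP, 36.2 and 16.8 RPKM in PD-1+ cells, 43.9 and 22.4 RPKM in CCR6+ cells, and 0.788 and 0 RPKM in CLP. For Il2rg they were Mppe1 (0.962), H2-Oa (0.949) and Prkch (0.948), and for Il7r Vamp1 (0.961), Myst1 (0.938) and Tgs1 (0.926). Vamp1, a vesicle fusion protein, had 21.5 RPKM in PD-1+ replicate 1 and 5.66 RPKM in replicate 2, the same order as Il7r. For Crlf2 they were Lpcat1 (0.980), Sh3bp5 (0.977) and Nod1 (0.977), for Il4ra Tceb3 (0.981), Pik3r5 (0.962) and Padi4 (0.959), for Il15ra Aldh3a2 (0.976), Ddx5 (0.973) and Tspyl1 (0.973), and for Il21r Dolpp1 (0.934), Daxx (0.931) and Tmed7 (0.927). Among the members themselves, the highest r was 0.93, between Il4ra and Crlf2, followed by 0.81 between Il2rg and Il2rb. The receptor partners Il7r and Il2rg gave 0.15 and the partners Il7r and Crlf2 gave -0.21. The lowest r was -0.71, between Il2rg and Il21r.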

How the data were processed

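Whole-transcriptome RNA-seq of 8 libraries (2 each of ChILP, PD-1+ cells, CCR6+ cells and CLP) was analysed. Polyadenylated RNA was amplified by Smart-seq2 and read in 50 bp runs, per the labels' protocols. Bowtie2 2.2.2, CASAVA 1.8.4 and build mm9 were used, per the submitters' processing notes. How reads were counted, with or without strand, is not given in the sources used here. The authors deposited, for each library, a whole-number read count and an RPKM for 29257 RefSeq transcripts. Their RPKM equals count over length and 1 library total (largest relative deviation 5e-06), so levels in RPKM depend on all other transcripts in the library. There are no molecular identifiers, so floors cover counting error only.

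For each of 22878 symbols the transcript with the largest mean count was used. Counts were tested across all genes with edgeR 4.0.16 (R 4.3.3; TMM scaling, minimum count 10, robust quasi-likelihood fit of all 8 libraries with group as the only term, two-sided), with Benjamini-Hochberg adjustment over 13619 genes and a threshold of 0.05. The fit had 4 residual degrees of freedom and a common coefficient of biological variation of 0.526. It was tested on counts simulated with its own fitted spread, where 4.76% to 8.92% of its calls were wrong. On the same counts the share was 28.9% to 33.7% by DESeq2 and 7.19% to 13.2% by limma. Fold changes are from TMM-scaled counts and can differ from ratios of RPKM. Alternatives used DESeq2 1.42.0 and limma 3.58.1 on log2(RPKM + 1) or log2(RPKM + 0.1). Tables and plots used Python 3.11.15 with pandas 2.3.3, numpy 2.4.6 and matplotlib 3.10.9. The members and gene lists were chosen with earlier results of these data known. All 9 members, list genes whose mean reached 5 RPKM in some group, and the 3 most similar genes per member above that level were named. Eomes, ligands under 1 RPKM, and the NK cell genes fall outside this rule and were chosen after their values were seen. Promoters came from the RefSeq table of GRCm38.p6, which holds 9 entries for 8 members and none for Il2rb. Its coordinates were not mixed with mm9. Same-numbered libraries deviated from their group means with correlations between -0.106 and 0.094 and were not treated as pairs. The result for 1 listed gene is not reported here.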

Additional observations from a re-analysis of the deposited data

How the results depend on the processing

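With 2 libraries a group and a coefficient of biological variation of 0.526, small differences were not detectable, and Il9r and Il2ra rest on few reads. No cause was tested for any value below. Counts are of genes and then of family members past an adjusted p of 0.05. In ChILP against CLP, 3 genes passed, and 0 with DESeq2 size factors or the replicate block, 263 by DESeq2, 55 and 46 by limma with pseudocounts of 1 and 0.1, 63 with no filter, 15 with a filter of 5 RPKM in 2 libraries, 59 with only the libraries compared and 0 to 51 with 1 library left out. Of the members 0 passed, and 1 (Il2rb) by DESeq2, by limma with pseudocount 1 and with no filter. In PD-1+ against CCR6+ cells 0 genes passed, and 128 by DESeq2, 2 by limma with pseudocount 1 and 0 to 36 with 1 library left out (36 without PD-1+ replicate 2). In PD-1+ cells against CLP 995 genes passed, and 2301 by DESeq2, 2147 and 1870 by limma, 208 with only the libraries compared, 632 with the replicate block and 8 to 995 with 1 library left out (8 without CLP replicate 2). Of the members 2 passed, and 1 by limma with pseudocount 0.1, with only the libraries compared and with the replicate block, and 0 to 2 with 1 library left out. In CCR6+ cells against CLP 1549 genes passed, and 2750 by DESeq2, 3114 and 2797 by limma, 1153 with the replicate block and 83 to 1930 with 1 library left out (83 without CLP replicate 2). Of the members 2 passed, and 4 by DESeq2, 1 with the replicate block and 1 to 3 with 1 library left out. Among the 4 groups 1322 genes passed, and 3075 by DESeq2, 2796 and 2462 by limma, 828 with the replicate block and 428 to 1577 with 1 library left out. Of the members 1 passed, and 2 with DESeq2 size factors, 5 by DESeq2, 2 by limma with pseudocount 1, 4 with no filter, 3 with the 5 RPKM filter and 1 to 3 with 1 library left out. With replicate 2 of both captured populations left out, a setting added after seeing the data, 43, 5, 414 and 506 genes passed in ChILP against CLP, PD-1+ against CCR6+, PD-1+ against CLP and the 4 groups.

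Directions turned only for differences that had not passed. In PD-1+ against CCR6+ cells Il2rg was 0.042 by limma with either pseudocount, 0.0068 with the 5 RPKM filter, 0.0065 with the replicate block, and -0.31 to 0.24 with 1 library left out. There, Il7r ranged from -0.56 to 1.18, Il2rb from -0.17 to 0.45, Il4ra from -0.66 to 0.12 and Il15ra from -0.23 to 0.54. Against CLP, Il7r ranged from -0.60 to 0.29 in ChILP, from -0.81 to 0.78 in PD-1+ cells (-0.26 and -0.28 by limma) and from -0.99 to 0.22 in CCR6+ cells. Il2ra in PD-1+ cells was -0.034 and -0.40 by limma, -0.24 with the replicate block and -6.52 to 1.20 with libraries left out, the lowest being fitted against 0 reads. Il9r was -1.005 in ChILP and -0.16 in CCR6+ cells with the replicate block, and -4.90 to 6.61 and -4.97 to 7.46 with libraries left out. The replicate block also ended the Il2rg calls against CLP, at adjusted p of 0.0710 in PD-1+ cells and 0.0549 in CCR6+ cells, and among the pathway genes those of Tbx21 in PD-1+ cells and of Jak3, Stat3 and Mcl1 in CCR6+ cells. The labels give no shared source for the numbers. Among the pathway calls against CLP, limma with either pseudocount ended those of Stat3 in both populations and of Tyk2 and Stat6 in CCR6+ cells (adjusted p 0.0611 to 0.172). DESeq2 size factors ended those of Jak3 (0.0554) and Gfi1 (0.0526) in CCR6+ cells. The fit of only the libraries compared ended those of Bcl2 (0.0589), Ets1 (0.0589), Tbx21 (0.0979) and Stat3 (0.0797) in PD-1+ cells and of Stat3 in CCR6+ cells (0.0618). Leaving out replicate 2 of both captured populations ended those of Stat3 in both, of Bcl2l1 in PD-1+ cells and of Stat6, Mcl1, Pim1 and Gfi1 in CCR6+ cells (0.0504 to 0.164). The 5 RPKM filter removed Il2ra and Il9r, which then have no value.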
